A study of Mus musculus with 9 samples.

Results

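Mouse colon mucosa that stayed free of tumors under butyrate was compared with mucosa from butyrate-treated mice that developed them. All mice were of the outbred ICR stock and received 1,2-dimethylhydrazine (DMH), a carcinogen that gives rodents colon tumors, under the skin at 20 mg/kg each week for 20 weeks. The 6 arrays compared came from mice that also drank 1.5% butyrate, and they were chosen by title from the 9 arrays of the series: 3 from tumor-free mice and 3 from tumor-bearing ones. The other 3 arrays came from mice given DMH and plain water (DMH only) and serve as a reference level. In every case the RNA was labelled as normal colonic mucosa, so the arrays with tumors also measured tissue outside the tumors. The labels give no age or sex and do not say whether the samples were separate animals, so p-values measure only the spread between these samples, which may be technical.

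The tumor status used here is that of the titles, descriptions and source names. A separate status field of the labels says the opposite for all 6 butyrate samples. If that field is right, every difference below changes its sign.

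Butyrate is made by gut bacteria from fibre. Colonocytes, the absorptive cells at the surface of the colon, take it up through the carriers Slc5a8 and Slc16a1, burn it by fatty acid oxidation and turn part of it into ketone bodies. It also inhibits histone deacetylases (HDACs), enzymes that remove acetyl groups from histones. New colonocytes arise in the crypt base, where Wnt signalling keeps stem cells dividing, and mature as they move to the surface.

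Levels are log2 signals relative to the 75th percentile of the same array, and differences are the mean of the 3 arrays without tumors minus the mean of the 3 with tumors. Markers of surface colonocytes were well measured, with 18 of 18 past the filter on dim probes, and the mucin gene Muc2 and the carbonic anhydrase gene Car1 were well above background on all 6 arrays. The signal at the 75th percentile was 281, 444 and 417 in arrays 1 to 3 without tumors, and 188, 832 and 880 in arrays 1 to 3 with tumors. All 3 arrays without tumors and array 1 with tumors shared slide 1, while arrays 2 and 3 with tumors lay on slide 2. Only array 1 with tumors thus allows a comparison within a slide, and the difference within slide 1 is given beside the results. Along the first principal component of the 6 arrays (52.8% of the variance) it lay at 3.75, between the arrays without tumors (-85.2, -44.8 and -41.0) and arrays 2 and 3 with tumors (73.1 and 94.1). It also lay apart from the other 5 on the second component (-94.6 against 7.55 to 35.2). None of the DMH-only arrays shared a slide with a butyrate array, as they occupied slides 3 and 4. Where their levels are set beside those of a butyrate group, slide and treatment therefore cannot be told apart.

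Of 21965 features (15346 named genes), limma with Benjamini-Hochberg adjustment called 0 at an adjusted p under 0.05 in either direction (0% higher and 0% lower). The smallest adjusted p was 0.0677, shared by 211 features, and 5838 features (26.6%) had an unadjusted p under 0.05, of which 2398 were higher and 3440 lower without tumors. The count of 0 moved when array 1 with tumors was left out. Without that array, limma called 4087 features, 1169 higher and 2918 lower. All arrays without tumors then lay on slide 1 and all with tumors on slide 2, so slide and tumor status cannot be told apart in that fit. A fit that also held the 3 DMH arrays, whose median SD per gene was 0.116 against 0.267 without and 0.383 with tumors, called 2976 (1440, or 6.56%, higher and 1536, or 6.99%, lower). A spread shared with the DMH arrays is too small for the butyrate groups, so the calls of that fit are liberal. At an adjusted p under 0.10, the 6-array fit called 646 features higher (2.94%) and 1182 lower (5.38%).

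Because no gene passed the test, the groups are described by their values. In 3634 features (16.5%) all 3 arrays without tumors lay above all 3 with tumors, and in 3651 (16.6%) all lay below; such features are called apart. Against arrays 2 and 3 with tumors alone, 29.2% were apart and higher and 31.4% apart and lower. Leaving out an array can only keep or raise such shares, so this rise is not a result in itself. The split moved with the scaling. It was 3873 higher and 2865 lower after quantile scaling, 3851 and 2798 after normexp, 108 and 1265 with no scaling, and 5175 and 1172 in the authors' deposited log2 values. The median difference over all features was -0.01, against -0.48 with no scaling and 0.36 in the authors' values, and differences are best read relative to these medians. Apart from genes with known roles in butyrate handling, DMH metabolism and the colon and the 20 with the smallest p, the genes named were chosen after their values were seen. The shares of 16.5% and 16.6% are the background for the counts of each gene list, shown in the plot of members apart by list. A gene can pass the filter through the group where it is high, and its being apart is then partly fixed by the filter. Among features well above background on all 6 butyrate arrays, 18.8% were apart and higher and 14.2% apart and lower.

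**Figure D1:**
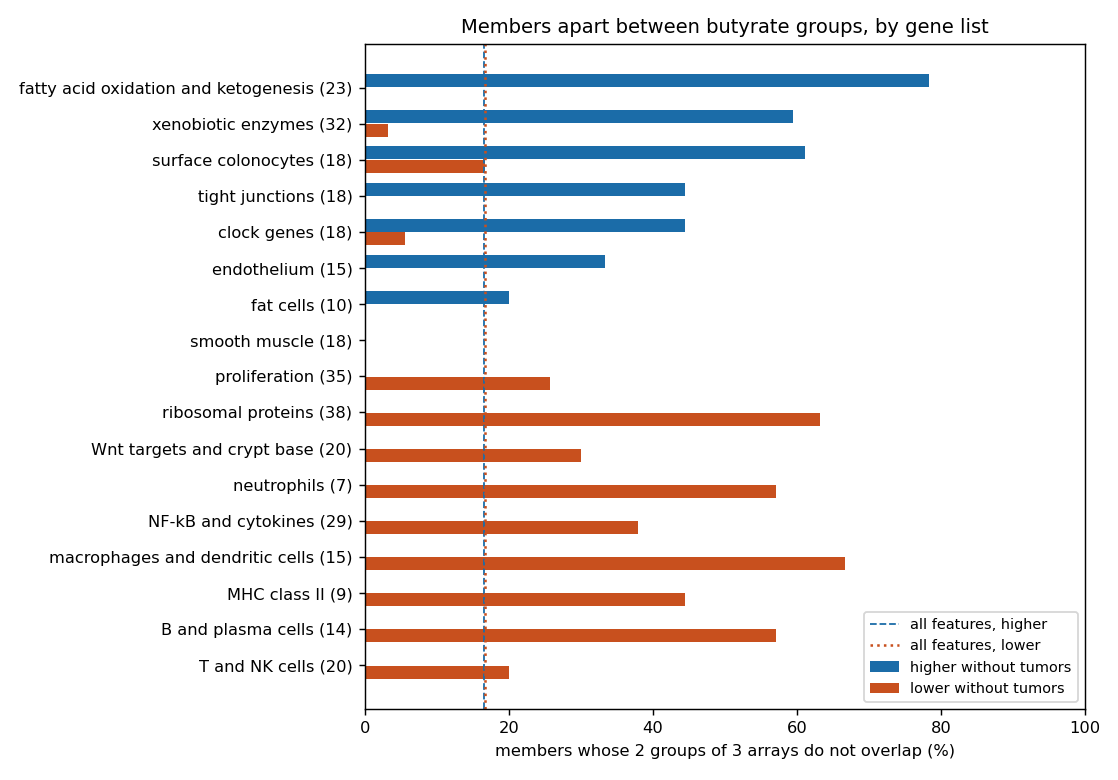
Percent of measured members of each gene list (number measured in brackets) whose 3 arrays without tumors all lay above (blue) or all below (orange) the 3 with tumors; dashed and dotted lines mark the shares over all 21965 features, 16.5% and 16.6%. Fatty acid oxidation (18 of 23) stands highest among lists higher without tumors, and macrophage (10 of 15) and ribosomal protein genes (24 of 38) among lists lower without tumors.

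Most genes of fat burning and many markers of the mature absorptive cell were apart and higher without tumors. Of 23 genes of fatty acid oxidation and ketogenesis, 18 were apart and higher and 0 apart and lower (background 16.5% and 16.6%). The median difference was 1.02 on the log2 scale, 0.77 within slide 1 and 1.08 against arrays 2 and 3 with tumors alone. The fit with all 3 groups, whose calls are liberal, called 13 of the 23 higher and 0 lower, against 6.56% and 6.99% of all features.

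The carnitine palmitoyltransferase gene Cpt1a, which admits long-chain fatty acids to mitochondria, was at 4.92, 4.16 and 4.35 without and at 3.28, 3.40 and 3.06 with tumors, a difference of 1.23 ± 0.26 (SE, 3 arrays a group; limma, adjusted p = 0.078). Pparg, a nuclear receptor that drives fat metabolism and colonocyte maturation, was at 5.43, 4.18 and 4.59 without and at 3.75, 3.14 and 3.03 with tumors (difference 1.42 ± 0.38, within slide 1 0.98). In both genes the lowest array without tumors lay above the highest with tumors, and array 1 without tumors was the highest. The coactivator gene Ppargc1a, which promotes mitochondrial growth, differed by 1.24 ± 0.25 (limma, adjusted p = 0.0768), and its second probe by 1.07. Acadm and Hadha of the mitochondrial oxidation spiral differed by 0.97 and 1.24, and Acaa2, its last step, by 1.25. The ketone body enzyme gene Bdh1 differed by 0.88, although a second probe had 0.22. Ppara, the fat-sensing receptor of liver and gut, differed by 2.07 ± 0.82, and its levels ran from -2.55 to 0.55 without tumors. Pdk4, which spares pyruvate when fat is burned, was among the members that overlapped, with 1.97 in array 1 without tumors but -0.01 and -0.72 in the other two.

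Enzymes that handle foreign compounds showed the same side. Of 32 xenobiotic enzyme and transporter genes, 19 were apart and higher and 1 apart and lower, with a median of 1.03 and 0.93 within slide 1. Cyp2c55, a colonic monooxygenase of fatty acids, was at 8.23, 6.34 and 6.90 without and at 4.67, 3.95 and 4.56 with tumors. The groups did not overlap, and the DMH-only arrays (6.71, 6.44 and 6.55) lay at the level without tumors. The difference was 2.77 ± 0.50 (limma, adjusted p = 0.0731). The sulfotransferase gene Sult1a1 was at 5.23, 4.27 and 4.84 without and at 2.94, 3.24 and 2.53 with tumors (difference 1.88 ± 0.32), and the DMH-only arrays again lay with the former (4.75 to 5.04).

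Ugt2b36, which attaches glucuronic acid to steroids and drugs, differed by 3.12 ± 0.63 and its relative Ugt2b34 by 1.07 ± 0.30. Other members apart and higher were the carboxylesterases Ces2a (2.44) and Ces1d (2.32), the monooxygenase Cyp2c65 (2.60), the retinal-oxidising Aldh1a1 (2.23), the quinone reductase Nqo1 (1.34), the glutathione transferases Mgst1 (1.30) and Gstm3 (1.00), and the efflux pump Abcc3 (1.13). Array 1 without tumors was the highest of the 6 in Ces2a (3.56), Ces1d (3.48), Cyp2c65 (6.11) and Aldh1a1 (6.54). The 1 member apart and lower, the efflux pump Abcc2, was well above background on 2 of 3 arrays with tumors and 0 of 3 without. It was about 4.57-fold lower without tumors, but its log2 difference was -0.71 within slide 1 and -2.93 against arrays 2 and 3 with tumors. This fold was set against the lowest signal counted as well above background on each array, or the measured signal where that was higher. A signal not well above background can lie above that lowest signal, so such folds are estimates and not lower limits. They take the mean of all 3 arrays of the higher group, also where some of those arrays were not well above background. Cyp2e1, the monooxygenase that takes part in activating DMH, overlapped between groups (1.74 ± 1.23) and was well above background on 1 of 6 arrays. Mgmt, which repairs the alkylated base that DMH leaves in DNA, did not pass the filter on dim probes.

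Of 18 surface colonocyte markers, 11 were apart and higher and 3 apart and lower, with a median of 0.84 (0.93 within slide 1). Car1, the main carbonic anhydrase of the colon, was at 8.21, 6.48 and 7.44 without and at 5.77, 5.01 and 5.35 with tumors. The groups did not overlap, and the difference was 2.00 ± 0.46 (limma, adjusted p = 0.0826). The sodium-proton exchanger gene Slc9a2 was at 0.53, -0.17 and -0.15 without and at -1.96, -1.60 and -1.29 with tumors (difference 1.69 ± 0.29). The brush border cadherin Cdhr5 differed by 1.51 ± 0.33. Smaller differences were those of the carbonic anhydrase Car4 (0.93), the guanylin gene Guca2a (0.90), the water channel Aqp8 (0.78) and the chloride exchanger Slc26a3 (0.63).

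Some markers of the same cells went the other way. The flagella-binding defence protein gene Lypd8 (-0.76 ± 0.26) and the keratin gene Krt20 (-0.35 ± 0.20) were apart and lower without tumors. The adhesion molecule gene Ceacam1 had -0.96 ± 0.24 by its brightest probe, but its other 2 probes had 1.80 and 1.57, so its direction depends on the probe. The bicarbonate and sulfate transport of the surface was represented outside the lists too: Slc26a2, a sulfate carrier, was at 3.98, 3.78 and 3.45 without and at 2.23, 2.19 and 2.33 with tumors (1.48 ± 0.22, limma, adjusted p = 0.0677).

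Of 18 tight junction genes, 8 were apart and higher and 0 apart and lower. Differences were positive in 12 and negative in 6, the lowest at -0.98. The median was 0.44, and -0.02 with no scaling. It was 0.99 within slide 1 and 0.13 against arrays 2 and 3 with tumors. Cldn15, which forms cation pores, was at 3.57, 2.82 and 3.22 without and at 1.90, 2.14 and 1.36 with tumors, a difference of 1.4 ± 0.30 (limma, adjusted p = 0.078). Cldn23 (1.31 ± 0.26), the strand protein gene Ocln (1.13 ± 0.40) and Cldn7 (0.74 ± 0.22) were apart as well. The scaffold gene Tjp1 had 0.70 by one probe and -0.25 by another.

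The glycolysis and hypoxia list (19 genes, 7 apart and higher, 1 apart and lower) had a median of 0.41, and -0.06 with no scaling. The liver-type phosphofructokinase gene Pfkl was at 3.91, 3.25 and 3.72 without and at 2.27, 2.2 and 2.19 with tumors (1.41 ± 0.23), and the hypoxia-induced carbonic anhydrase gene Car9 differed by 1.11 ± 0.22. Insig1, a sterol-regulated brake on cholesterol synthesis, differed by 1.47 ± 0.31 and by 1.17 in a second probe. It was among 6 of 26 cholesterol and fatty acid synthesis genes apart and higher (0 apart and lower), a list with a median of 0.20.

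**Figure D2:**
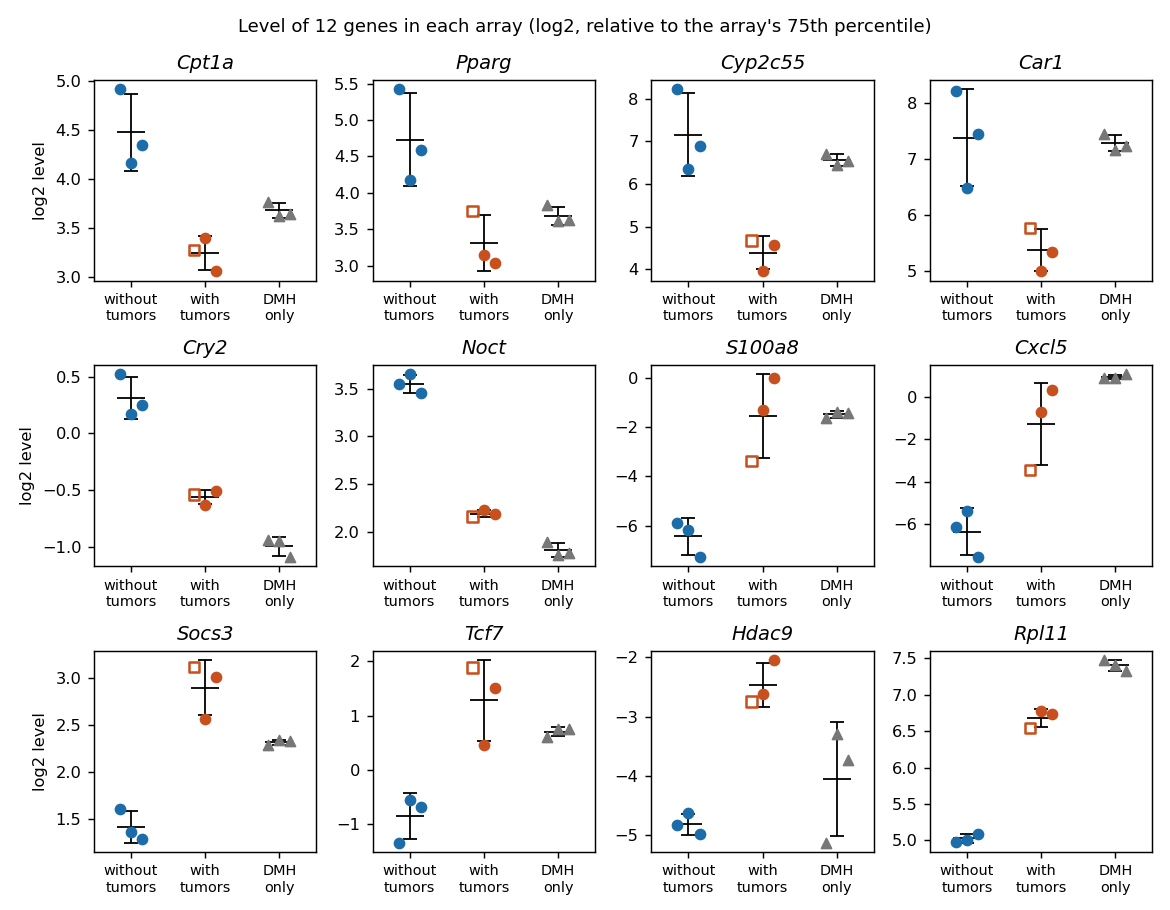
Log2 level, relative to the 75th percentile of the array, of 12 genes in the arrays without tumors (blue), with tumors (orange; open square, array 1 on slide 1) and DMH only (grey triangles); bars are the mean and SD of 3 arrays. In each gene the 3 arrays without tumors lie on one side of the 3 with tumors, for example at 3.46 or more in Noct without and at 2.23 or less with tumors.

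Some genes of the NF-kB pathway and cytokines were lower without tumors. Of 29 members, 0 were apart and higher, 11 apart and lower and 18 overlapping (background 16.5% and 16.6%). Il1a, Il22 and Cxcl2, among those apart and lower, were not well above background on any array without tumors. They passed the filter only through other arrays. The list median was -0.90, -1.04 within slide 1 and -0.35 to -1.37 over the other scalings and the authors' values. It was -0.64 with only probes well above background on all 6 arrays. Of 27 interferon-stimulated genes measured, 1 was apart in each direction, and 21 had positive differences, with a median of 0.14 that was -0.38 within slide 1 and -0.32 with no scaling. Cxcl5, an epithelial chemokine that attracts neutrophils, was at -6.12, -5.37 and -7.53 without and at -3.44, -0.74 and 0.32 with tumors. The probe was well above background on 3 of 3 arrays with tumors and 1 of 3 without. Its difference of -5.05 ± 1.01 was the furthest from 0 in this list (limma, adjusted p = 0.0758), and within slide 1 it was -2.90.

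The interleukin gene Il1b was at -2.42, -1.78 and -1.66 without and at -0.05, -0.94 and 0.33 with tumors, a difference of -1.73 ± 0.39 (limma, adjusted p = 0.0808). Tnf, which encodes tumor necrosis factor, differed by -1.34 ± 0.32 and the leukocyte adhesion molecule gene Icam1 by -1.77 ± 0.38. Socs3, induced by cytokine signals through STAT3, was at 1.61, 1.36 and 1.29 without and at 3.12, 2.57 and 3.02 with tumors. All 3 arrays with tumors lay above the rest, and the DMH-only arrays lay between the groups (2.29 to 2.34). Its difference was -1.48 ± 0.23, and -1.69 within slide 1. The alarmin gene Il33 differed by -0.93 ± 0.25.

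For 3 further members no array of the tumor-free group was well above background, so only approximate folds can be given. Il1a was about 3.74-fold lower without tumors (measured on 1 of 3 arrays with tumors). Il22, which acts on epithelial repair, was about 4.98-fold lower (3 of 3) and the neutrophil chemokine gene Cxcl2 about 3.86-fold lower (2 of 3). Their log2 differences within slide 1 were -2.41, -2.66 and -1.10. The inhibitor gene Tnfaip3 overlapped (0.45 ± 0.32), as did Ptgs2, the inducible prostaglandin synthase (-0.36 ± 0.61, with 0.29 in a second probe).

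Markers of neutrophils and of macrophages and dendritic cells lay on the same side. Of 12 neutrophil markers, 7 were measured, and 4 of them were apart and lower. Elane, Camp, Ngp, Mmp8 and Cxcr2 did not pass the filter. The median was -1.64, and -0.99 within slide 1. It ran from -0.50 (normexp) to -2.11 (no scaling) over the other scalings and the authors' values. The calprotectin subunit gene S100a8 was well above background on 3 of 3 arrays with tumors and 0 of 3 without (-3.37 with tumors in array 1, then -1.30 and -0.01). Over the group means it was about 29.3-fold lower without tumors, but its log2 difference within slide 1 was -3.07. Its partner S100a9 was at -2.18, -3.57 and -4.81 without and at -1.99, -0.14 and 2.08 with tumors. The groups did not overlap, but array 1 of each group, on the same slide, lay close together.

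The gelatinase gene Mmp9 (-1.64 ± 0.50) and the colony-stimulating factor receptor gene Csf3r (-1.31 ± 0.42) were apart and lower. Lactoferrin (Ltf) was well above background on 0 of 3 arrays without and 2 of 3 with tumors, with -2.92 and -2.78 in arrays 2 and 3. In array 1 with tumors Ltf was at -6.47, so the groups overlapped, and its difference within slide 1 was -0.32. Lcn2, an iron-withholding protein of neutrophils and inflamed epithelium, was measured on as many arrays. It was at -2.75 and 0.40 in arrays 2 and 3 and -5.21 in array 1 with tumors. Over the group means it was about 16.9-fold lower without tumors, but its log2 difference within slide 1 was -1.39.

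Of 15 macrophage and dendritic cell genes, 10 were apart and lower and 0 apart and higher (median -0.86, and -1.09 within slide 1). The monocyte receptor gene Ccr2 was about 5.49-fold lower without tumors, where 0 of 3 arrays measured it against 2 of 3 with tumors. The Fc receptor gene Fcgr1 (-1.73 ± 0.46), the lysozyme gene Lyz2 (-1.25 ± 0.45) and the dendritic cell receptor gene Flt3 (-0.93 ± 0.23) were apart. The defining macrophage genes Csf1r (-0.59 ± 0.39) and Adgre1 (-0.31 ± 0.34) overlapped. Myeloid genes were also among those with the smallest p: Cd300lf, an inhibitory receptor of myeloid cells, was at -4.77, -5.08 and -4.27 without and at -1.0, -2.01 and -1.01 with tumors (-3.36 ± 0.36), and Ms4a6d, a membrane protein of macrophages, differed by -2.05 ± 0.21 (limma, adjusted p = 0.0677 for both). Within slide 1 they differed by -3.70 and -2.02. In whole mucosa, fewer cells of a type and less RNA per cell cannot be told apart.

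Lymphocyte markers were highest in 1 array with tumors. Of 14 B and plasma cell genes, 8 were apart and lower (57.1%), and of 20 T and natural killer cell genes 4 were (20.0%). The latter share lay near the 16.6% of all features. The medians of the lists were -1.46 and -1.23. Within slide 1 these were -2.82 and -2.84, and against arrays 2 and 3 with tumors only -0.82 and -0.49. The B cell gene Ms4a1 was at 0.87, 1.59 and 1.53 without tumors, at 4.52 in array 1 with tumors, and at 1.66 and 2.22 in arrays 2 and 3. The T cell receptor component gene Cd3d had 3.37 in array 1 with tumors, against -0.32 to 1.11 in the other 5, and Cd3d and Cd3e overlapped between the groups.

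Genes of MHC class II, which presents antigen to helper T cells, followed. Of 9 members, 4 were apart and lower, with a median of -1.23, which was -2.21 within slide 1 and -0.73 against arrays 2 and 3. The peptide-loading gene H2-DMb1 was at 1.79, 2.03 and 1.12 without and at 3.76, 3.01 and 3.27 with tumors (-1.70 ± 0.32), and H2-Ob differed by -1.59 ± 0.37, so that these members differed in all 3 tumor arrays. Ciita, the master regulator of the class, had 0.51 in array 1 with tumors against -2.79 to -1.59 in the other 5, and Cd74 overlapped. The list levels in each array, plotted by list, set array 1 with tumors apart for lymphocyte and class II genes and place it among the other tumor arrays for macrophage genes.

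**Figure D3:**
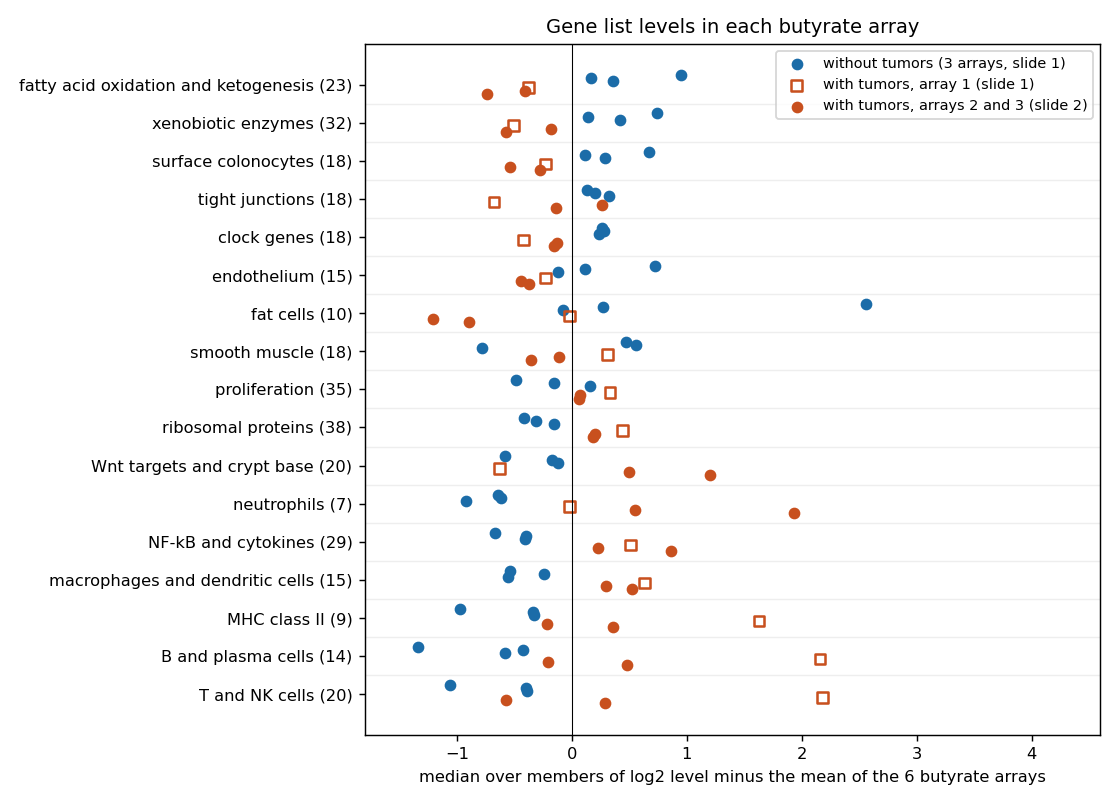
Median over the measured members (number in brackets) of the log2 level minus the mean of the 6 butyrate arrays, for each array; blue, without tumors; open orange squares, array 1 with tumors, on slide 1; filled orange, arrays 2 and 3 with tumors, on slide 2. Array 1 with tumors is at 2.16 for B and plasma cells and 2.18 for T and NK cells, where all others are at 0.48 or less, and at -0.63 for Wnt targets, where arrays 2 and 3 with tumors are at 0.50 and 1.20.

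Crypt-base genes divided the tumor group in the opposite way. Of 20 Wnt targets and crypt-base genes, 6 were apart and lower and 0 apart and higher, with a median of -0.64, which was -0.27 within slide 1 and -1.24 against arrays 2 and 3 with tumors. Notum, a secreted Wnt antagonist induced by Wnt itself, was at -5.82, -2.90 and -3.09 without tumors and -2.79 in array 1 with tumors, but at -0.38 and 1.93 in arrays 2 and 3. Sp5, a direct Wnt target, was at -3.42, -2.81 and -2.94 without tumors, -2.45 in array 1 with tumors, and 0.35 and 1.87 in arrays 2 and 3. In both genes array 1 with tumors lay close to arrays 2 and 3 without tumors. Nkd1 and Rnf43, feedback inhibitors of the pathway, and the matrilysin gene Mmp7 overlapped, with differences of -0.32, -0.21 and -0.90 within slide 1 and -2.87, -1.73 and -3.62 against arrays 2 and 3.

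The transcription factor genes Tcf7 and Lef1 were lower without tumors both within slide 1 and against arrays 2 and 3 with tumors. Tcf7 was at -1.34, -0.55 and -0.68 without and at 1.89, 0.45 and 1.50 with tumors, a difference of -2.14 ± 0.42 (limma, adjusted p = 0.0758), and -1.34 in a second probe. Lef1 was at -4.69, -3.90 and -3.95 without and at -1.74, -2.78 and -1.96 with tumors (-2.02 ± 0.36). Both genes are also expressed in T cells, whose markers were highest in array 1 with tumors; the part of those cells in these values was not tested. Prox1, a Wnt target of tumor progression, differed by -1.28 ± 0.38. The stem cell receptor gene Lgr5 (-0.64 ± 0.63) and the Eph receptor gene Ephb2 (0.34 ± 0.44, and -0.19 in a second probe) overlapped. Myc, the growth regulator, was at 1.59, 2.21 and 2.37 without and at 2.49, 2.52 and 2.68 with tumors (-0.51 ± 0.26, with -0.78 and -0.59 in 2 other probes), apart by a narrow margin. Axin2 did not pass the filter.

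Of 35 proliferation genes, 9 were apart and lower and 0 apart and higher, with a median of -0.28, and 0.01 in the authors' values. Mcm2, part of the replicative helicase, was at -1.86, -1.10 and -0.20 without and at 0.16, 0.92 and 1.02 with tumors (-1.75 ± 0.46), and the mitotic kinase gene Aurkb differed by -1.68 ± 0.33. The proliferation marker Mki67 (-0.21 ± 0.27) and the topoisomerase gene Top2a (-0.81 ± 0.46) overlapped. A second probe of Mki67 had -0.93 ± 0.45. Cdkn1a, which encodes the cell cycle inhibitor p21 and is induced by HDAC inhibitors, was at 4.42, 4.25 and 4.03 without and at 3.44, 3.34 and 3.75 with tumors. All 3 arrays without tumors were higher, by 0.73 ± 0.22 (limma, adjusted p = 0.116) and by 0.79 within slide 1.

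Most ribosomal protein genes were apart and lower without tumors. Of 38 measured, 24 were apart and lower and 0 apart and higher, with a median of -0.57. The median was -0.74 within slide 1, and -0.28 to -1.08 over the other scalings and the authors' values. The fit with all 3 groups, whose calls are liberal, called 17 lower, against 6.99% of all features. Rpl11, a large-subunit protein that also restrains the p53 regulator Mdm2, was at 4.98, 5.01 and 5.09 without and at 6.54, 6.77 and 6.73 with tumors. Levels within each group were close together and the groups lay far apart; the DMH-only arrays were higher still (7.32 to 7.47). The difference was -1.65 ± 0.19 (limma, adjusted p = 0.0677), and -1.51 within slide 1.

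Rplp0, of the ribosomal stalk, differed by -1.41 ± 0.27, Rpl7 by -1.43 ± 0.28, Rpl23 by -1.21 ± 0.21 and Rpl10a by -1.72 ± 0.41. The small-subunit genes Rps19 (-1.23 ± 0.24) and Rps6 (-1.12 ± 0.32) were apart too. Other probes of these genes gave smaller differences: -0.46 for Rplp0, -0.13 for Rpl23, and -0.77 and -0.48 for Rpl7. Members ranged from -1.72 to 0.19. Ribosomal protein transcripts have many processed pseudogenes, whose signal these probes cannot be told apart from.

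Respiratory chain genes did not share a direction. Of 34, 12 were apart and higher and 5 apart and lower, with a median of 0.26, and -0.21 with no scaling. The succinate dehydrogenase subunit genes Sdhb and Sdhc were higher by 0.96 ± 0.23 and 0.86 ± 0.20. Sdha had 1.07 ± 0.22 by one probe and -0.16 by another. The cytochrome oxidase subunit genes Cox6c (-1.02 ± 0.23) and Cox7c (-1.91 ± 0.57) were lower. Within slide 1 their differences were -0.65 and -0.60, and against arrays 2 and 3 with tumors -1.20 and -2.57. Cox7c also differed between the slides of the DMH-only arrays, at 1.72 on slide 3 and at 4.01 and 3.90 on slide 4. The ATP synthase gene Atp5b had -1.07 ± 0.24, with -0.85 and 0.16 in 2 other probes.

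Clock genes, which time transcription over the day, were higher without tumors in part, with 8 of 18 apart and higher, 1 apart and lower and 9 overlapping. In the clock, Clock and Arntl bind the E-box (CACGTG) and drive the repressors Per and Cry, while Tef, Hlf and Dbp bind the D-box (TTATGTAA). RefSeq promoter sequence (GRCm38.p6) was found for 15 of 18 measured clock genes, and in the 250 bases before the start an E-box stood in 4 and a D-box in 1, against 6.02% and 0.819% of all 32851 promoter windows searched on both strands. All 5 sequences with a motif are shown, 5′ to 3′ on the strand of the gene and with the motifs in capitals, because 4 of these genes were higher without tumors and 1, Ciart, was lower. They lie at chr11:69098699-69098948 (Per1, plus strand), chr10:85185055-85185304 (Cry1, minus), chr15:81802423-81802672 (Tef, plus), chr4:151044666-151044915 (Per3, minus) and chr3:95882229-95882478 (Ciart, minus). A match is a description of the letters and does not show binding.
Per1: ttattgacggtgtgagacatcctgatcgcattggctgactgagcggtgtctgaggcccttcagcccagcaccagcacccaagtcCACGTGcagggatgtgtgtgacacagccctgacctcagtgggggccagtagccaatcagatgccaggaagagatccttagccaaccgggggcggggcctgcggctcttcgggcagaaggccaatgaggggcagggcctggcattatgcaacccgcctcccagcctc
Cry1: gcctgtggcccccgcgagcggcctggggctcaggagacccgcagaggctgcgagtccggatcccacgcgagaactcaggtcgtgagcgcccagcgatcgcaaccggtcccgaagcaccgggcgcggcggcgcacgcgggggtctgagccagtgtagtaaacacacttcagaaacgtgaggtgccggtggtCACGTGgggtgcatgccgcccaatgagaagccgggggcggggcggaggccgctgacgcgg
Tef: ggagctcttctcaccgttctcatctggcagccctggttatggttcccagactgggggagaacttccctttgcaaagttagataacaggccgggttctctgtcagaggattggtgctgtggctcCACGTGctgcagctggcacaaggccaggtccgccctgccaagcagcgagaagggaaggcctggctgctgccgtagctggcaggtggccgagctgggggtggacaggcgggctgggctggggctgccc
Per3: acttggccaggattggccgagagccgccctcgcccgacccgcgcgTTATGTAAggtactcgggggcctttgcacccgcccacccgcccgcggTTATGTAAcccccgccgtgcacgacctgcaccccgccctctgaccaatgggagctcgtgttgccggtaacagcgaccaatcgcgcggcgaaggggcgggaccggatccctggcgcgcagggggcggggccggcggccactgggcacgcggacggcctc
Ciart: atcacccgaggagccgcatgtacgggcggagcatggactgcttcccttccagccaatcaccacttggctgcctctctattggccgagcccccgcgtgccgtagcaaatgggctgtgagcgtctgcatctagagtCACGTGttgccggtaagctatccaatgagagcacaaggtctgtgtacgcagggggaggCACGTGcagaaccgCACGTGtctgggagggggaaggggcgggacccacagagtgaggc

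The E-box began 166 bases before the start of Per1, 60 before that of Cry1 and 127 before that of Tef, and those of Ciart began 116, 58 and 44 bases before. The median difference of the 18 measured clock genes was 0.46, and -0.01 with no scaling; within slide 1 it was 0.60. Among the repressors, Cry2 was at 0.52, 0.17 and 0.25 without and at -0.54, -0.63 and -0.51 with tumors, a difference of 0.88 ± 0.20 (limma, adjusted p = 0.0826) and 0.86 within slide 1. The DMH-only arrays were lower than both groups (-0.94 to -1.09). Per3 was at -1.72, -1.76 and -1.90 without and at -4.10, -2.49 and -2.97 with tumors (1.39 ± 0.41). Array 1 with tumors was the lowest of the 6, near the DMH-only arrays (-3.93, -4.01 and -4.04).

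Per1 differed by 0.64 ± 0.20 and Cry1 by 0.75 ± 0.29, both apart. The nuclear receptor gene Nr1d2, which represses Arntl, differed by 0.78 ± 0.23. The output factor gene Tef differed by 0.90 ± 0.25, and by 1.14 in a second probe, whereas Dbp (0.50 ± 0.31) overlapped. Bhlhe40, a repressor that binds E-boxes, was apart by 0.41 ± 0.21. Ciart, a repressor of Clock and Arntl with 3 E-boxes, was at -3.69, -3.01 and -3.08 without and at -2.34, -1.15 and -1.06 with tumors (-1.74 ± 0.40). The core activator gene Arntl overlapped, with 0.04 ± 0.31. Noct, a rhythmic phosphatase, was at 3.55, 3.65 and 3.46 without and at 2.16, 2.23 and 2.19 with tumors. Levels within each group were close together and the groups lay apart, with a difference of 1.36 ± 0.19 (limma, adjusted p = 0.0677). The hour at which tissue was taken is not given in the labels, and its part in these values was not tested.

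Genes of butyrate uptake, sensing and target enzymes were mixed. Of 17 measured, 4 were apart and higher and 3 apart and lower (23.5% and 17.6%, against 16.5% and 16.6% of all features). The monocarboxylate carrier gene Slc16a1 was at 4.93, 5.05 and 5.09 without and at 4.51, 4.70 and 4.30 with tumors, a difference of 0.52 ± 0.20 (limma, adjusted p = 0.169), with 1.47 and 0.68 in 2 other probes. Bsg, the chaperone that brings it to the membrane, differed by 0.92 ± 0.30. The sodium-coupled carrier gene Slc5a8 was at 2.08, 2.40 and 2.53 without and at 0.78, 2.23 and 0.99 with tumors. Array 2 with tumors overlapped the group without tumors, and the difference was 1.00 ± 0.41. Slc16a5, another monocarboxylate carrier gene, was at 0.96, 0.75 and 0.54 without and at -0.94, -0.97 and -0.67 with tumors (1.61 ± 0.22, limma, adjusted p = 0.0677).

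Of the receptors, Ffar2 was at 0.73, 0.26 and 0.54 without and at -0.37, -0.32 and -1.42 with tumors (1.21 ± 0.35, limma, adjusted p = 0.107), below the DMH-only arrays (0.95 to 1.47) in all 6. Hcar2, the niacin and butyrate receptor gene, overlapped (-1.44 ± 0.52) and was well above background on 3 of 6 arrays. Hdac9, a class IIa deacetylase, was at -4.82, -4.63 and -4.98 without and at -2.75, -2.62 and -2.05 with tumors. Every array with tumors was above every array without, with a difference of -2.34 ± 0.26 (limma, adjusted p = 0.0677), and a second probe had -1.45 ± 0.74. Hdac2, the class I enzyme, differed by -0.85 ± 0.29 and Hdac11 by 0.62 ± 0.20. Hdac4 overlapped (-1.49 ± 0.63).

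Ligands and receptors of the EGF family, which carry growth and repair signals, were higher in part. Of 12 measured genes, 5 were apart and higher and 0 apart and lower. Differences were positive in 8 and negative in 4, the lowest at -1.97. The median was 0.30, and -0.16 with no scaling. Egf differed by 0.97 ± 0.24 and the receptor genes Erbb2 and Erbb3 by 1.05 ± 0.26 and 1.47 ± 0.60, where 3 other probes of Erbb3 had 1.25, 1.93 and 0.13.

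Other cell types of the mucosa were checked by their markers. Of 14 goblet cell genes, 1 was apart and higher, the kallikrein gene Klk1 (1.66 ± 0.47), with a list median of 0.51 that was 1.32 within slide 1 and 0.08 against arrays 2 and 3 with tumors. Muc2, the gel-forming mucin, was at 6.70, 6.19 and 6.4 without and at 4.25, 6.31 and 5.03 with tumors (1.23 ± 0.51), where array 2 with tumors overlapped. Its 2 other probes had 1.23 ± 0.28 and 1.54 ± 0.47. Tff3, the goblet cell trefoil peptide, had -0.51 ± 0.55, the transcription factor gene Spdef 1.05 ± 0.45 and Clca1 0.54 ± 0.46, all overlapping.

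All 10 measured fat cell genes had positive differences (median 1.58), but only 2 were apart. Adipoq, the fat cell hormone, was at 1.52, -1.29 and -1.63 without and at -2.32, -6.90 and -4.64 with tumors, and the list was at 2.56 in array 1 without tumors against -1.21 to 0.27 in the other 5. The fat cell genes thus varied with array 1 without tumors, which was also highest in Pparg and the carboxylesterases; without that array the median of the fatty acid oxidation list was 0.78, that of xenobiotic enzymes 0.80 and that of fat cells 0.74. Cfd overlapped (4.09 ± 1.72), and the lipase gene Lpl was apart (1.89 ± 0.70). The part of fat tissue in these values was not tested.

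Smooth muscle genes (18 measured) and enteric neuron and glia genes (19) had 0 members apart in either direction, with medians of 0.03 and 0.16. Within slide 1 these were -0.08 and -0.58 (17 of 19 neuron and glia genes negative), and against arrays 2 and 3 with tumors 0.26 and 0.46, so the sign turned with the tumor arrays used. Of 15 endothelial genes, 5 were apart and higher (median 0.58), among them Vwf (1.32 ± 0.25, and 0.75 in a second probe) and Plvap (0.79 ± 0.30); Flt1 had 1.32 by one probe and -0.04 by another. Of 10 squamous epithelium genes, Krt6a and Dsg3 were apart, a share of 20.0% that lay near the 16.6% of all features. They were about 3.29-fold and about 2.30-fold lower without tumors, each well above background on 2 of 3 arrays with tumors. The list had a median of -0.86 but 0.01 within slide 1. Mast cell genes likewise had -1.19 over all arrays and 0.14 within slide 1, although the IgE receptor subunit gene Fcer1a was apart (-1.77 ± 0.27, and -2.17 within slide 1).

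Of epithelial defence genes, 3 of 17 measured were apart and lower, a share of 17.6% that lay near the 16.6% of all features. The list median was -0.28, and 0.16 within slide 1. The members apart were Lcn2, the angiogenin gene Ang2 (-2.98 ± 0.82) and the Paneth lysozyme gene Lyz1 (-1.69 ± 0.37). The lectin genes Reg3b (-0.62 ± 0.54) and Reg3g (-1.45 ± 0.59) overlapped.

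The plot of list medians sets the parts of the tumor group side by side, each against the same 3 arrays without tumors. Fatty acid oxidation, xenobiotic, NF-kB, macrophage and ribosomal lists had medians of one sign and similar size on both axes. Lymphocyte and class II lists differed more within slide 1, and Wnt, mast cell, squamous and neutrophil lists more against arrays 2 and 3. Slide 2 held only tumor arrays, so for the latter lists slide and tumor status cannot be told apart.

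**Figure D4:**
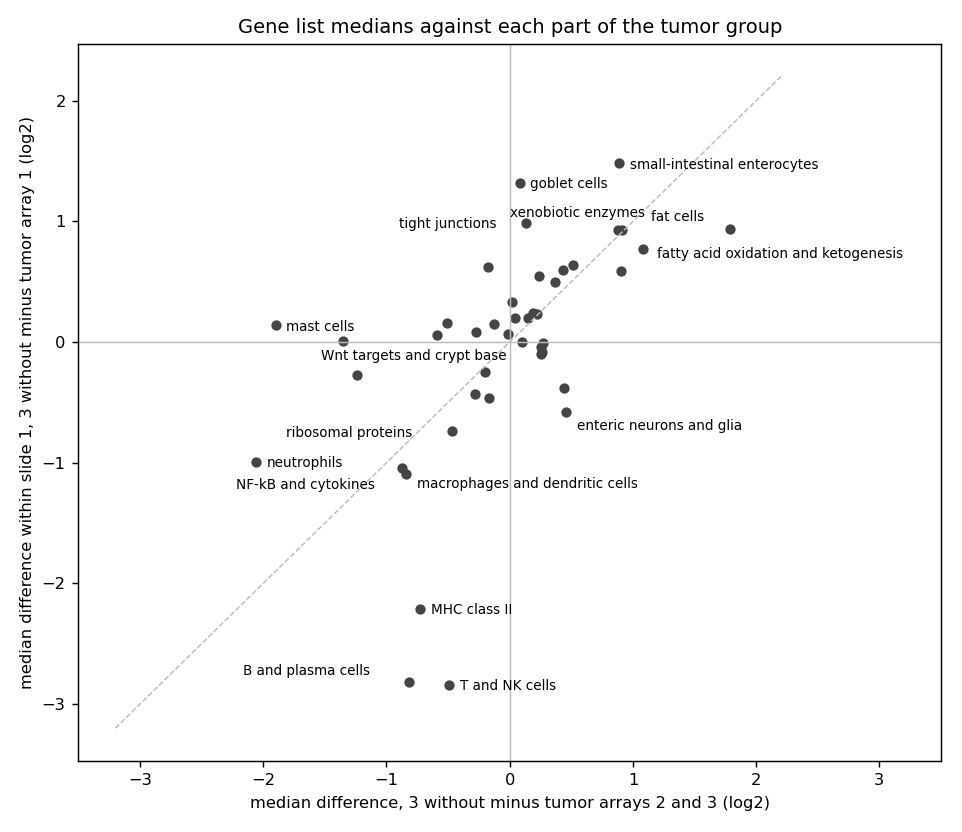
Each point is a gene list with at least 5 measured members; x, median log2 difference of the 3 arrays without tumors from arrays 2 and 3 with tumors (slide 2); y, the same from array 1 with tumors (slide 1); the dashed line marks equal values. Lymphocyte lists lie at -0.82 and -0.49 on x but -2.82 and -2.84 on y, mast cell genes at -1.90 and 0.14, and fatty acid oxidation at 1.08 and 0.77.

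Genes with the smallest p among those apart, 10 in each direction, were spread over functions. Higher without tumors were Slc16a5, Noct and Slc26a2 as above, and Timmdc1, an assembly factor of respiratory complex I. Timmdc1 was at -1.41, -1.50 and -1.29 without and -3.61, -3.03 and -3.22 with tumors (1.88 ± 0.23). Also higher were Ndfip2, an adaptor of ubiquitin ligases (1.28 ± 0.20, and 1.23 in a second probe), Clec2e (2.06 ± 0.32, and 2.16) and Tlcd4 (1.47 ± 0.23, and 1.06). The others were Spata17 (1.85 ± 0.23, well above background on 1 of 3 arrays with tumors), Nudt10 (about 2.99-fold) and Plekha5. For Plekha5 a second probe had the opposite sign (1.32 against -0.76). Within slide 1 their differences ran from 1.20 to 2.21.

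Lower without tumors were Rasgrp3, an activator of Ras in B cells and endothelium, at -2.38, -2.16 and -2.23 without and 0.63, -0.11 and 0.52 with tumors (-2.60 ± 0.26), and Ly6d, a surface protein of B cell precursors and squamous epithelium, at -0.60, 0.12 and 0.02 without and 4.34, 2.92 and 3.31 with tumors (-3.68 ± 0.41). Cd300lf, Ms4a6d and Hdac9 are given above. The remaining 5 were not well above background on any array of the tumor-free group. Itih1 was about 7.10-fold lower and Slfn9 about 5.22-fold. Lce1e was about 4.85-fold lower, Olfr1258 about 4.08-fold and 1700020A23Rik about 3.60-fold, each well above background on 2 of 3 arrays with tumors. All 20 had a limma adjusted p of 0.0677. For these 5 and Nudt10, 1 group was not well above background on any array, so that p does not bear on the size of their difference.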

How the data were processed

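RNA of normal colonic mucosa was measured on 9 single-colour Agilent arrays, read with Feature Extraction 10.5.1.1 per the file headers. The intensity used was the deposited processed signal, which is background-corrected per the file headers. It was scaled as log2 minus each array's 75th percentile. The authors' deposited log2 values differ from log2 of that signal by a constant per array, and how that constant was set is not given in the sources used here. Outlier spots were left out, spots of a probe averaged, probes kept if well above background on at least 3 of 9 arrays, and the brightest probe used per gene. Symbols came from RefSeq by accession (26933 probes named, 14241 not). Differences on 6 arrays were tested with limma 3.58.1 in R 4.3.3 (lmFit and eBayes, Benjamini-Hochberg over all features, adjusted p under 0.05) and checked on simulated data. Precision is limited by the number of arrays.

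The rule named called genes first, of which there were 0. The genes named are therefore 14 genes of butyrate, DMH and colon biology, the 10 with the smallest p among those apart in each direction, and members of lists chosen after their values were seen. The members and lists were chosen with earlier results of these data known. Some genes are not reported here. Scaling, background, filter, probe, model, slide, replicate block and left-out arrays were varied.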

Additional observations from a re-analysis of the deposited data

How the results depend on the processing

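The count of 0 called features (limma, adjusted p under 0.05; 5838 at an unadjusted p under 0.05) stayed 0 with quantile scaling, normexp, the authors' values, either other filter, outlier spots kept, the mean of probes, a trended robust prior, slide as a random block, each array without tumors left out, and array 3 with tumors left out. It became 123 with no scaling (3 higher, 120 lower), 2976 with all 3 groups (1440 and 1536), 7207 with array weights (2653 and 4554), 357 with slide as a fixed block (94 and 263), which compares the arrays without tumors with array 1 with tumors alone, and 1828 at an adjusted p under 0.10 (646 and 1182). With array weights, the median of B and plasma cell genes was -0.77, against -0.82 without array 1 with tumors and -1.46 with equal weights. That of Wnt targets was -1.09, against -1.24 and -0.64, while that of fat cells was 1.17, against 1.79 and 1.58. In the first 2 lists the weighted fit lay near the fit without array 1 with tumors, where slide and tumor status cannot be told apart. Leaving out 1 array gave 0 to 4087, the highest without array 1 with tumors (0 to 1169 higher, 0 to 2918 lower), and 1 without array 2. The labels' replicate numbers did not pair the samples (correlations of 0.16, 0.054 and -0.0029), and with the replicate block 0 features were called (5621 at an unadjusted p under 0.05). Features apart numbered 108 higher and 1265 lower with no scaling and 1172 lower in the authors' values. Leaving out 1 array, which can only keep or raise these counts, gave 3921 to 6422 higher and 3903 to 6898 lower. Some named genes took the other direction, and the cause was not tested. With no scaling these were Tnfaip3 (-0.02), Ephb2 (-0.13), Bhlhe40 (-0.06) and Arntl (-0.42). With slide as a fixed block they were Tff3 (0.64), Lgr5 (0.69), Ptgs2 (0.95), Tnfaip3 (-0.2) and Arntl (-0.15), and as a random block Tff3 (0.15), Lgr5 (0.12), Ptgs2 (0.39) and Arntl (-0.07). Mki67 had 0.08 in the authors' values and Ceacam1, apart and lower by its brightest probe, 0.8 as the mean of its probes. Leaving out 1 array gave ranges that crossed or reached 0: Mki67 -0.37 to 0.05, Tff3 -1.09 to 0.0, Ptgs2 -1.01 to 0.15, Adgre1 -0.53 to 0.04, Ephb2 -0.11 to 0.61 and Arntl -0.24 to 0.31.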
